A study of Mus musculus with 8 samples.

Results

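The 43 genes described here carry out or signal the repair of DNA double-strand breaks and interstrand crosslinks: homologous recombination, the Fanconi pathway, end resection, the ATM and ATR checkpoints and end joining, with Parp1 and the mismatch repair gene Msh6 beside them. They were taken by gene symbol, from a list of known repair genes, out of 56884 annotated genes in the count table. That list was chosen with earlier results of these data known. All 43 were found, all passed the filter on low counts, and they were among 13707 genes tested. The data are bulk messenger RNA sequencing of Lacun3, a mouse lung adenocarcinoma cell line. One group was a CRISPR-made Stk11 knockout line (KO, 4 libraries) and the other the parental line with intact Stk11 (WT, 4 libraries). Both were grown untreated in the same serum-containing medium and harvested in logarithmic growth, as independent replicate cultures per the labels. The product of Stk11 is LKB1, a kinase upstream of AMPK that is often lost in lung adenocarcinoma. The sources used here do not say whether the KO line is a single clone or a pool, or which exon was cut, so effects of Stk11 and of the particular line cannot be told apart.

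Cells repair a double-strand break in competing ways. After resection of the ends, BRCA1 with BARD1, PALB2 and BRCA2 prepares single-stranded DNA for copying from the sister chromatid, which restricts homologous recombination to cells that have replicated their DNA. Ku, DNA-PKcs and the LIG4 ligase instead rejoin ends directly at any cell cycle stage, and 53BP1 shields ends from resection. The Fanconi core complex ubiquitinates FANCD2 and FANCI at crosslinks, and mismatch repair, in which MSH6 and MSH3 take part, removes copying errors.

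Levels are given as CPM, the counts of a gene relative to its library's total after TMM scaling, and p-values are from edgeR's quasi-likelihood test, adjusted over all 13707 genes by the Benjamini-Hochberg method with a threshold of 0.05. Libraries held 21441601 to 25715008 counts in the KO group and 18837263 to 21101904 in the WT group. A single count equalled 0.0388 to 0.0515 CPM, and the 43 genes had 40 to 3237 counts in any library. Stk11 itself stood at 35.4, 35.1, 33.5 and 35.0 CPM in the KO libraries, against 64.9, 67.1, 68.4 and 64.7 CPM in the WT libraries. KO replicate 3 stood apart from the other libraries of its group: the chi-square per degree of freedom between it and the other KO libraries was 14.1 to 20.4, against at most 9.51 for every other pair within a group. Epithelial markers summed to 7699 to 8607 CPM in KO and 8158 to 8589 CPM in WT libraries. In KO cells Krt18 was 1.40-fold lower (adjusted p = 8.36e-07), Epcam 1.23-fold lower (adjusted p = 0.0150) and Krt19 1.17-fold higher (adjusted p = 0.00245), while Krt8 and Cdh1 did not pass. The lung alveolar genes Sftpc and Sftpa1 had no count in any library and the lung lineage factor Nkx2-1 had 1 count in all. The 6 lung epithelial markers summed to 0.695 to 1.78 CPM in KO and 0.714 to 1.85 CPM in WT libraries, nearly all from Napsa, with 14 to 37 counts in any library. Of markers of other cell types, the immune list summed to 43.7 to 56.6 CPM in KO and 77.2 to 88.7 CPM in WT libraries, carried by Cd14 and by Cd68, which was 2.57-fold lower in KO cells (adjusted p = 3.88e-05), while the pan-leukocyte gene Ptprc had 1 count in all. The endothelial list summed to 3.42 to 4.81 CPM in KO and 1.05 to 1.85 CPM in WT libraries, with Cdh5 3.04-fold higher in KO cells (adjusted p = 2.03e-07) and Kdr at 0 counts, and the fibroblast list to 2.03 to 3.07 CPM in KO and 3.86 to 5.62 CPM in WT libraries, with Col1a1 1.59-fold lower (adjusted p = 0.00229) and Col1a2 at 0 counts. The part of these markers in the repair results was not tested.

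Of the 43 genes, 20 were higher and 14 lower in KO than in WT cells, and 9 did not pass. Changes were frequent across the transcriptome: 67.9% of all tested genes were called, 34.4% higher and 33.5% lower, so that the share of repair genes called lower was near the background and the share called higher, 46.5%, was above it. Because the list was chosen with earlier results of these data known, whether this share exceeds the background was not tested. At a change of at least 1.5-fold, 9 of the 43 were higher and 4 lower, against 15.0% and 16.9% of all tested genes. The median log2 fold change was 0.16 for the 43 genes and 0.01 for all tested genes. Their median absolute change was 0.43, against 0.37 for all. In 17 genes every KO library lay above every WT library, and in 13 every KO library lay below, against 30.5% and 30.2% of all tested genes, or 60.6% without overlap in either direction. The other 13 overlapped.

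**Figure D1:**
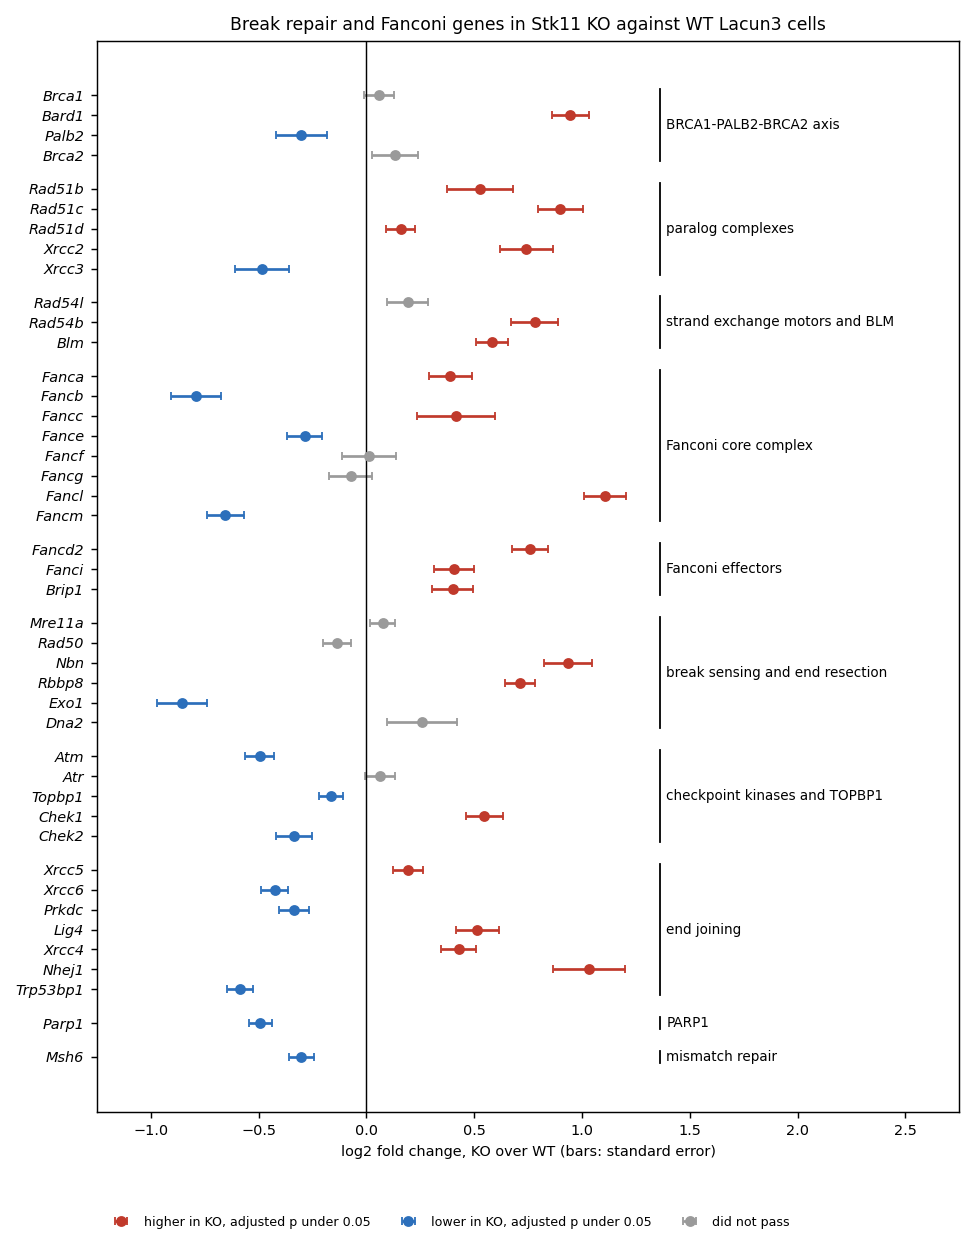
Log2 fold change, KO over WT, of each of the 43 genes by role, with the standard error of the fit as bars and colour for the call at an adjusted p under 0.05 (n = 4 libraries per group). The Rad51b, Rad51c, Rad51d and Xrcc2 genes and the Fanconi effectors lie mostly right of 0, while Atm, Xrcc6, Prkdc, Trp53bp1, Parp1 and Msh6 lie left of it.

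Homologous recombination genes were called higher in 7 of 12 and lower in 2, against 34.4% and 33.5% of all tested genes. Their median log2 fold change was 0.36, and the calls differed between partners. Brca1, a ubiquitin ligase that directs repair to recombination, had 35.6, 34.9, 32.7 and 35.8 CPM in KO libraries, against 33.1, 37.4, 31.8 and 31.2 CPM in WT libraries. The groups overlapped, and the log2 fold change was 0.06 ± 0.07 (SE, adjusted p = 0.488). Bard1 (chromosome 1, 71066657 to 71142305, minus strand, GRCm39), which encodes the obligate RING partner of BRCA1, had 30.0, 23.8, 26.0 and 29.1 CPM in KO libraries, against 14.0, 14.9, 14.6 and 13.0 CPM in WT libraries. Every KO library was above every WT library, and Bard1 was 1.93-fold higher (log2 fold change 0.95 ± 0.09, adjusted p = 1.26e-09). In bulk RNA, a change in the share of cells in a given state and a change in RNA per cell cannot be told apart.

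Palb2, which bridges BRCA1 and BRCA2, had 6.89, 8.10, 6.21 and 9.31 CPM in KO libraries, against 9.53, 9.55, 8.99 and 9.48 CPM in WT libraries. One KO library lay within the WT range, and the fall of 0.30 ± 0.12 on the log2 scale passed narrowly (adjusted p = 0.0286). This call was lost when WT replicate 1, 2 or 4 or KO replicate 1 or 3 was left out, at log2 values of -0.30 to -0.21. Brca2, which acts in strand invasion, had 14.0, 16.5, 22.3 and 17.6 CPM in KO libraries and 16.0, 16.9, 14.8 and 16.8 CPM in WT libraries. The groups overlapped, with a log2 fold change of 0.13 ± 0.11 (adjusted p = 0.283). KO replicates 1 and 3 set that value: it was 0.23 (adjusted p = 0.0454) without KO replicate 1 and -0.01 without KO replicate 3.

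The paralog complexes assist strand invasion and act at stalled forks. Of their genes, 4 of 5 were higher and 1 was lower, against 34.4% and 33.5% of all tested genes. Rad51c, the subunit common to both human paralog complexes, had 12.2, 11.8, 12.1 and 14.1 CPM in KO libraries, against 6.33, 7.28, 7.15 and 6.13 CPM in WT libraries. The groups were far apart relative to their spread, and the rise was 1.87-fold (log2 fold change 0.90 ± 0.10, adjusted p = 7.42e-08). Xrcc2 averaged 10.7 ± 0.971 CPM in KO and 6.39 ± 1.13 CPM in WT libraries (SD, n = 4), a log2 fold change of 0.74 ± 0.12 (adjusted p = 1.17e-05). Rad51b had 11.8, 13.4, 7.38 and 12.5 CPM in KO libraries and 7.53, 6.67, 8.99 and 7.93 CPM in WT libraries. KO replicate 3 lay within the WT range, and the log2 fold change was 0.53 ± 0.15 (adjusted p = 0.00503). Rad51d changed little, at 34.8 ± 2.17 CPM in KO and 31.2 ± 0.995 CPM in WT libraries (log2 fold change 0.16 ± 0.07, adjusted p = 0.0389), and the call was lost by DESeq2, by scaling to library size alone and under several other settings. Xrcc3 moved the other way, with 4.96, 5.84, 4.78 and 6.77 CPM in KO libraries, against 7.29, 7.55, 8.21 and 8.14 CPM in WT libraries. No libraries overlapped, and Xrcc3 fell by 0.48 ± 0.13 on the log2 scale (adjusted p = 0.00169).

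The motor proteins that drive strand exchange and the BLM helicase, which dissolves joined molecules, were measured through 3 genes. Blm had 38.1, 35.7, 32.5 and 34.7 CPM in KO libraries, against 26.0, 24.5, 21.7 and 21.8 CPM in WT libraries. All KO values were above all WT values (log2 fold change 0.58 ± 0.08, adjusted p = 4.08e-07). Rad54b averaged 13.6 ± 1.73 CPM in KO and 7.93 ± 0.590 CPM in WT libraries, a 1.72-fold rise (adjusted p = 1.07e-06). Its relative Rad54l did not pass, at 10.9 ± 0.640 CPM in KO and 9.59 ± 0.245 CPM in WT libraries (log2 fold change 0.19 ± 0.09, adjusted p = 0.078), although its groups did not overlap.

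Among 32 other genes of homologous recombination, 16 were higher and 6 lower, against 34.4% and 33.5% of all tested genes. Their median log2 fold change was 0.25. Ercc1, part of a structure-specific endonuclease, averaged 98.0 ± 9.24 CPM in KO and 56.8 ± 2.63 CPM in WT libraries (log2 fold change 0.79 ± 0.06, adjusted p = 1.96e-10). Uimc1, which encodes the BRCA1-associated protein RAP80, rose by 0.48 ± 0.06 (adjusted p = 6.57e-07). Of the genes that fell, the helicase gene Recql5 changed by -0.39 ± 0.08 (adjusted p = 0.000155) and Rpa1, a subunit of the single-strand binding protein, by -0.26 ± 0.05 on the log2 scale (adjusted p = 0.000182).

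**Figure D2:**
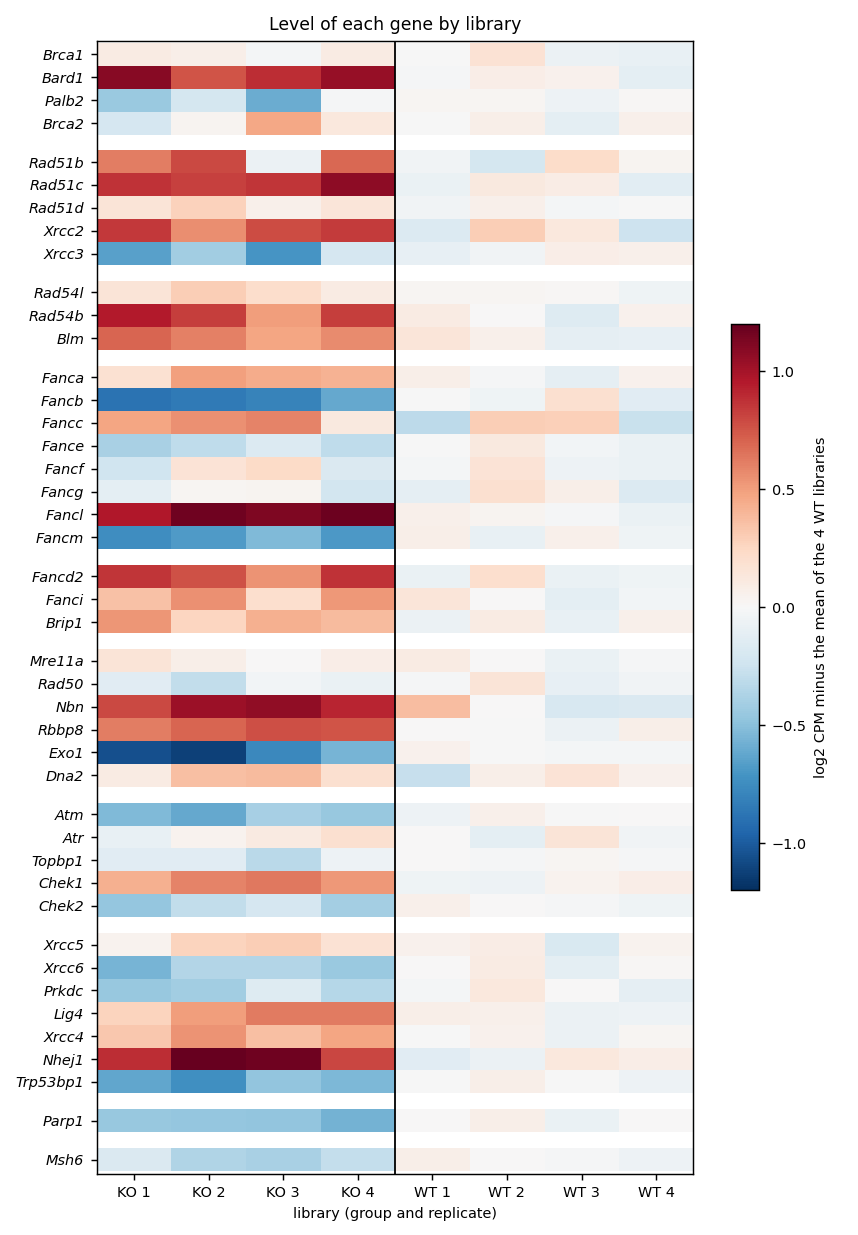
Difference of each gene in each library from the mean of the WT libraries, on the log2 CPM scale, with KO libraries at the left and WT libraries at the right and genes in order of role. Bard1, Rad51c, Fancl, Nbn and Nhej1 are high in all 4 KO libraries and Fancb, Fancm, Exo1 and Trp53bp1 low in all 4, while Rad51b and Brca2 stand apart in KO replicate 3.

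Promoter sequences of genes that did and did not move together are shown because Brca1 and Bard1 encode one enzyme, and because Rad51c, Xrcc6 and Msh6, which hold letters of the same E2F set, went in different directions. RefSeq promoters (mouse build GRCm38.p6) matched 34 of the 43 genes, with 38 sequences from 250 bases before to 50 after the transcription start. E2F factors drive many genes at the start of DNA replication. The letters TTTCCCGC, TTTCGCGC, TTTGCCGC or TTTGGCGC, on either strand, were found in 9 of the 38 sequences (23.7%), against 2.26% of 32851 promoters. The 8 genes concerned were split: Bard1 and Rad51c were called higher, Chek2, Msh6, Topbp1 and Xrcc6 lower, and Brca2 and Fancg did not pass. CCAAT, on either strand, stood in 55.3% of the 38 and 37.4% of all promoters, and the letters TTTGAA or TTCGAA of the CHR element in 7.89% and 19.2%. The letters TGACGTCA of the CRE element stood in 5.26% and 1.79%, among the 38 in Brca2 and at the first start of Rad51c. A match of letters is a description and not a binding site. The sequences below run 5′ to 3′ on the gene's strand, from 250 bases before to 30 after the start, with a match to the E2F letters in capitals. They are Bard1 at chr1:71102943-71103222 (minus strand), Brca1 at chr11:101551926-101552205 (minus), the first of 2 starts of Rad51c at chr11:87404477-87404756 (minus), Xrcc6 at chr15:82016119-82016398 (plus) and Msh6 at chr17:87974800-87975079 (plus).
Bard1: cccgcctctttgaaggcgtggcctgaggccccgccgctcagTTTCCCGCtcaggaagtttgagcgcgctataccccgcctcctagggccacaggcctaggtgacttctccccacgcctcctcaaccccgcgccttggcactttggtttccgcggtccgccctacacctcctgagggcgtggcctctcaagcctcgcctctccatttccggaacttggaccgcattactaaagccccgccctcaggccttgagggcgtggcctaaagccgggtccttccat
Brca1: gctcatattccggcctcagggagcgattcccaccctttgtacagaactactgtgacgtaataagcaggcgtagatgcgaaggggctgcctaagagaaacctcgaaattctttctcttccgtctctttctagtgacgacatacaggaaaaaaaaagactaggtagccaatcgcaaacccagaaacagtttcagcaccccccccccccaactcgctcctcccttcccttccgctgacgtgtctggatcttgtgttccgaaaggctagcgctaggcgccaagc
Rad51c: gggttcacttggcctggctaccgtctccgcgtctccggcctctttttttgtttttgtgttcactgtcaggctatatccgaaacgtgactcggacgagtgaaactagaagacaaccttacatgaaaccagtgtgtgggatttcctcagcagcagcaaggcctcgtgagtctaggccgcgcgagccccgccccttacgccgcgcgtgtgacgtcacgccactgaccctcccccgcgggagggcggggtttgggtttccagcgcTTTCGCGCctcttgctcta
Xrcc6: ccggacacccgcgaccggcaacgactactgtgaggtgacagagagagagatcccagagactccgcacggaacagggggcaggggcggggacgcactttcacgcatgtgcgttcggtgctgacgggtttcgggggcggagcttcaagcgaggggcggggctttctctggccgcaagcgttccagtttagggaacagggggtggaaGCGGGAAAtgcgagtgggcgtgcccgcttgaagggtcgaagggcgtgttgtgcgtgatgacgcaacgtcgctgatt
Msh6: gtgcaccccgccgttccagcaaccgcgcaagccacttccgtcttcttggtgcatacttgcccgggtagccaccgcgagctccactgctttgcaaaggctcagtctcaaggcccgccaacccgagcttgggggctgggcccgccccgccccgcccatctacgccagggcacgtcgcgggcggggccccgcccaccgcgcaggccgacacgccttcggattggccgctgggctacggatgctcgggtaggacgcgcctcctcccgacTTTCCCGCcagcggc
The E2F letters begin 209 bases before the start in Bard1, 46 before it in Xrcc6, 12 after the first start in Rad51c and 16 after the start in Msh6, and Brca1 has none in the window. At the second start of Rad51c, whose sequence is not shown, a match begins 5 bases before the start.

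In the Fanconi pathway the core complex split, with 3 genes higher, 3 lower and 2 that did not pass. All 3 genes acting after it were higher, where 34.4% of all tested genes were higher and 33.5% lower. Fancl (chromosome 11, 26336135 to 26421876, plus strand, GRCm39), the ubiquitin ligase subunit, had 13.4, 15.4, 15.0 and 15.6 CPM in KO libraries, against 7.19, 7.04, 6.79 and 6.49 CPM in WT libraries. The groups did not overlap, and at 2.15-fold Fancl had the largest rise of the 43 (log2 fold change 1.11 ± 0.10, adjusted p = 6.33e-10). Exons of any annotated gene on the opposite strand overlap 13.7% of the exon bases of Fancl. Vrk2, which rose by 0.70 on the log2 scale, overlaps Fancl on that strand. The sources used here do not say whether reads were counted by strand, so the part of Vrk2 in the Fancl counts was not tested.

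Fancb, a scaffold of the ligase module, fell to 5.37 ± 0.454 CPM in KO libraries, against 9.28 ± 0.913 CPM in WT libraries (log2 fold change -0.79 ± 0.12, adjusted p = 2.41e-06). Fancm, the DNA translocase that anchors the core complex on DNA, had 10.7, 11.2, 12.4 and 11.1 CPM in KO libraries, against 18.8, 16.9, 18.7 and 17.3 CPM in WT libraries. Each KO library was below each WT library, a 1.57-fold fall (log2 fold change -0.65 ± 0.09, adjusted p = 5.09e-07). Of the remaining core subunits, Fanca rose by 0.39 ± 0.10 (adjusted p = 0.00154) and Fance fell by 0.29 ± 0.08 on the log2 scale (adjusted p = 0.00363). Fancc, the member with the lowest level per kilobase, was called higher at 0.41 ± 0.18 (adjusted p = 0.0479), but its groups overlapped and the call was lost by DESeq2 and under most other settings. Fancf and Fancg did not pass, at log2 fold changes of 0.01 ± 0.13 (adjusted p = 0.944) and -0.07 ± 0.10 (adjusted p = 0.522).

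Fancd2, which is ubiquitinated by the core complex and clamps DNA with FANCI, had 39.9, 37.3, 32.0 and 40.2 CPM in KO libraries, against 20.9, 25.3, 20.9 and 21.3 CPM in WT libraries. No KO library reached down to a WT library, and Fancd2 was 1.69-fold higher (log2 fold change 0.76 ± 0.08, adjusted p = 2.79e-08). Fanci had 18.8, 21.6, 17.0 and 21.2 CPM in KO libraries, against 16.3, 14.8, 13.6 and 14.5 CPM in WT libraries. Its groups were separate but closer, at 1.33-fold (log2 fold change 0.41 ± 0.09, adjusted p = 0.000412). Opposite-strand exons of any annotated gene overlap 16.0% of the exon bases of Fanci, and the overlapping gene Polg on that strand changed by -0.29. Brip1, a helicase that binds BRCA1, averaged 14.2 ± 1.14 CPM in KO and 10.8 ± 0.677 CPM in WT libraries (log2 fold change 0.40 ± 0.09, adjusted p = 0.000622). Of 11 further Fanconi genes, 4 were higher and 1 lower, against 34.4% and 33.5% of all tested genes. Usp1, which removes ubiquitin from FANCD2, averaged 82.7 ± 9.60 CPM in KO and 43.8 ± 2.71 CPM in WT libraries (log2 fold change 0.92 ± 0.07, adjusted p = 1.92e-10), whereas its activating partner Wdr48 fell by 0.25 ± 0.05 on the log2 scale (adjusted p = 0.000251). Faap100, a core complex subunit, rose by 0.71 ± 0.10 (adjusted p = 5.94e-07).

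Break sensing and end resection were divided within the MRN complex. Nbn, its signalling subunit, averaged 16.0 ± 1.31 CPM in KO and 8.38 ± 1.6 CPM in WT libraries, a 1.91-fold rise (log2 fold change 0.93 ± 0.11, adjusted p = 1.29e-07). Its partners did not pass: the nuclease gene Mre11a stood at a log2 fold change of 0.08 ± 0.06 (adjusted p = 0.262) and the ATPase gene Rad50 at -0.14 ± 0.07 (adjusted p = 0.069). Rad50 was called lower when scaled to library size alone (-0.22, adjusted p = 0.00773), by the upper quartile, and without WT replicate 3 or KO replicate 3.

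Rbbp8, which encodes CtIP, the cofactor that starts resection, had 33.1, 35.1, 37.1 and 36.5 CPM in KO libraries, against 21.8, 21.6, 20.7 and 22.8 CPM in WT libraries. The groups were separate at 1.64-fold (log2 fold change 0.71 ± 0.07, adjusted p = 3.62e-09). Exo1, an exonuclease of long-range resection and of mismatch repair, had 6.05, 5.79, 7.38 and 8.53 CPM in KO libraries, against 13.0, 12.6, 12.4 and 12.4 CPM in WT libraries. Here every KO library was lower, and the 1.81-fold fall was the largest of the 43 (log2 fold change -0.86 ± 0.11, adjusted p = 5.94e-07). Dna2, the nuclease of the other long-range route, did not pass (log2 fold change 0.26 ± 0.16, adjusted p = 0.169).

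At the checkpoint, 3 of 5 genes were lower and 1 higher, against 33.5% and 34.4% of all tested genes. Atm, the kinase activated by double-strand breaks, had 29.0, 27.3, 31.8 and 30.7 CPM in KO libraries, against 40.2, 43.8, 41.7 and 41.9 CPM in WT libraries. The groups did not overlap, and Atm was 1.41-fold lower (log2 fold change -0.50 ± 0.07, adjusted p = 5.82e-07). Its target kinase Chek2 was also lower, at 14.9 ± 1.23 CPM in KO and 18.8 ± 0.581 CPM in WT libraries (log2 fold change -0.33 ± 0.08, adjusted p = 0.00108).

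The kinase of single-stranded DNA and stalled forks, Atr, had 45.8, 50.2, 52.2 and 55.4 CPM in KO libraries and 48.8, 45.0, 54.1 and 47.1 CPM in WT libraries. Those groups overlapped (log2 fold change 0.06 ± 0.07, adjusted p = 0.423). Chek1, the kinase downstream of ATR, had 16.1, 18.0, 18.5 and 17.2 CPM in KO libraries, against 11.5, 11.4, 12.3 and 12.6 CPM in WT libraries. It was higher in each KO library (log2 fold change 0.55 ± 0.09, adjusted p = 5.54e-06). Topbp1, which activates ATR, averaged 128 ± 9.60 CPM in KO and 144 ± 1.82 CPM in WT libraries (log2 fold change -0.16 ± 0.06, adjusted p = 0.0125). Of 11 further checkpoint genes, 3 were higher and 3 lower, against 34.4% and 33.5% of all tested genes. Clspn and Timeless, which support CHEK1 activation at forks, rose by 0.42 ± 0.09 (adjusted p = 0.000267) and 0.39 ± 0.10 (adjusted p = 0.00117), while Rad9a and Rad1, subunits of the checkpoint clamp, fell by 0.53 ± 0.07 (adjusted p = 8.77e-07) and 0.41 ± 0.08 (adjusted p = 7.2e-05) on the log2 scale.

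All 7 end joining genes passed, 4 higher and 3 lower, against 34.4% and 33.5% of all tested genes. The direction differed between the subunits of Ku. Xrcc6, which encodes Ku70, had 48.0, 55.6, 55.3 and 51.9 CPM in KO libraries, against 71.2, 75.8, 65.1 and 71.5 CPM in WT libraries. Its groups were apart, with a 1.34-fold fall (log2 fold change -0.43 ± 0.06, adjusted p = 2.58e-06). Xrcc5, which encodes Ku80, had 50.6, 59.1, 60.3 and 55.6 CPM in KO libraries and 50.9, 52.4, 43.4 and 50.8 CPM in WT libraries. These overlapped, and the rise of 0.19 ± 0.07 on the log2 scale (adjusted p = 0.0168) was lost without WT replicate 3 (0.13, adjusted p = 0.0934) and when scaled to library size alone (0.11, adjusted p = 0.192).

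The catalytic subunit of DNA-PK, Prkdc, had 44.0, 45.2, 54.3 and 47.7 CPM in KO libraries, against 59.4, 65.9, 60.4 and 56.1 CPM in WT libraries. The ranges did not meet (log2 fold change -0.34 ± 0.07, adjusted p = 0.00016). Trp53bp1, encoding 53BP1, had 58.6, 54.4, 65.3 and 62.1 CPM in KO libraries, against 90.1, 94.6, 90.2 and 86.9 CPM in WT libraries. It was 1.5-fold lower with wide separation (log2 fold change -0.59 ± 0.06, adjusted p = 8.67e-09).

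The other 3 end joining genes, Nhej1, Lig4 and Xrcc4, were higher. Nhej1, which encodes XLF, had 3.86, 4.95, 4.70 and 3.66 CPM in KO libraries, against 1.91, 1.99, 2.29 and 2.22 CPM in WT libraries. It was 2.05-fold higher without overlap (log2 fold change 1.03 ± 0.17, adjusted p = 8.89e-06). The ligase gene Lig4 averaged 13.4 ± 1.5 CPM in KO and 9.42 ± 0.514 CPM in WT libraries (log2 fold change 0.51 ± 0.10, adjusted p = 9.34e-05), and its scaffold Xrcc4 averaged 20.5 ± 1.42 CPM in KO and 15.3 ± 0.522 CPM in WT libraries (log2 fold change 0.43 ± 0.08, adjusted p = 5.97e-05).

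Of 18 further genes of end joining and break signalling, 8 were higher and 5 lower, against 34.4% and 33.5% of all tested genes. Their median log2 fold change was 0.07. The gap-filling polymerase gene Polm rose by 0.58 ± 0.08 (adjusted p = 5.11e-07) and Rif1, which acts with 53BP1, by 0.44 ± 0.06 (adjusted p = 1.12e-06). Paxx, which encodes a relative of XLF and XRCC4, fell by 0.29 ± 0.11 on the log2 scale (adjusted p = 0.021) and was named after its value was seen. Dclre1c, which encodes the nuclease Artemis, fell to 13.7 ± 1.18 CPM in KO libraries, against 23.5 ± 1.74 CPM in WT libraries (log2 fold change -0.78 ± 0.09, adjusted p = 2.76e-08), and Parp3 fell by 0.40 ± 0.06 on the log2 scale (adjusted p = 2.39e-06).

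Parp1, which marks breaks with poly(ADP-ribose), had 104, 104, 103 and 96.2 CPM in KO libraries, against 143, 150.0, 135 and 144 CPM in WT libraries. The groups did not overlap, and Parp1 was 1.41-fold lower (log2 fold change -0.49 ± 0.05, adjusted p = 1.7e-08).

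Among mismatch repair genes, Msh6 was lower while Mlh3 and Pms2 were higher. Msh6, which recognises single mispaired bases, had 109, 95.8, 94.0 and 101 CPM in KO libraries, against 129, 123, 122 and 118 CPM in WT libraries. Every KO library was lower (log2 fold change -0.30 ± 0.06, adjusted p = 5.24e-05). Of the MutL-type genes, Mlh3 averaged 37.8 ± 5.29 CPM in KO and 27.0 ± 1.25 CPM in WT libraries (log2 fold change 0.49 ± 0.08, adjusted p = 1.91e-05), and Pms2 rose by 0.21 ± 0.09 (adjusted p = 0.0409). Msh3, which recognises larger loops, did not pass (0.09 ± 0.09, adjusted p = 0.386), nor did Pms1 (0.22 ± 0.11, adjusted p = 0.0854).

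Because partners often act as complexes, the ratio of counts between 6 pairs of genes was computed within each library, where scaling cancels. These ratios are not per length, so that differences between groups and not the ratios themselves are compared. Xrcc6 over Xrcc5 was 0.949, 0.941, 0.917 and 0.934 in KO libraries, against 1.40, 1.45, 1.5 and 1.41 in WT libraries. The groups were separate and tight, 1.54-fold lower in KO cells. Bard1 over Brca1 was 0.843, 0.682, 0.794 and 0.814 in KO libraries, against 0.422, 0.399, 0.459 and 0.416 in WT libraries, 1.84-fold higher in KO cells.

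Brca1 over Trp53bp1, genes whose products compete over resection, averaged 0.582 ± 0.0598 in KO and 0.369 ± 0.0188 in WT libraries (SD, n = 4). Msh3 over Msh6 averaged 0.146 ± 0.0156 in KO and 0.111 ± 0.00531 in WT libraries. Fanci over Fancd2 averaged 0.527 ± 0.0445 in KO and 0.675 ± 0.0811 in WT libraries. Its groups were barely apart, with KO replicate 2 at 0.579 and WT replicate 2 at 0.586. In each of these 5 ratios the groups did not overlap (exact permutation test over 70 assignments, two-sided p = 0.0286, the smallest that 4 against 4 allows, and 0.0343 after Benjamini-Hochberg adjustment over 6). Each of these pairs holds a gene whose own groups did not overlap, so the ratios are not independent of the calls above. Groups did not overlap for 60.6% of all tested genes, and no share was computed for ratios of other gene pairs. The Lig4 over Xrcc4 ratio, at 0.655 ± 0.0703 in KO and 0.618 ± 0.0290 in WT libraries, did not pass (exact permutation test, p = 0.429).

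**Figure D3:**
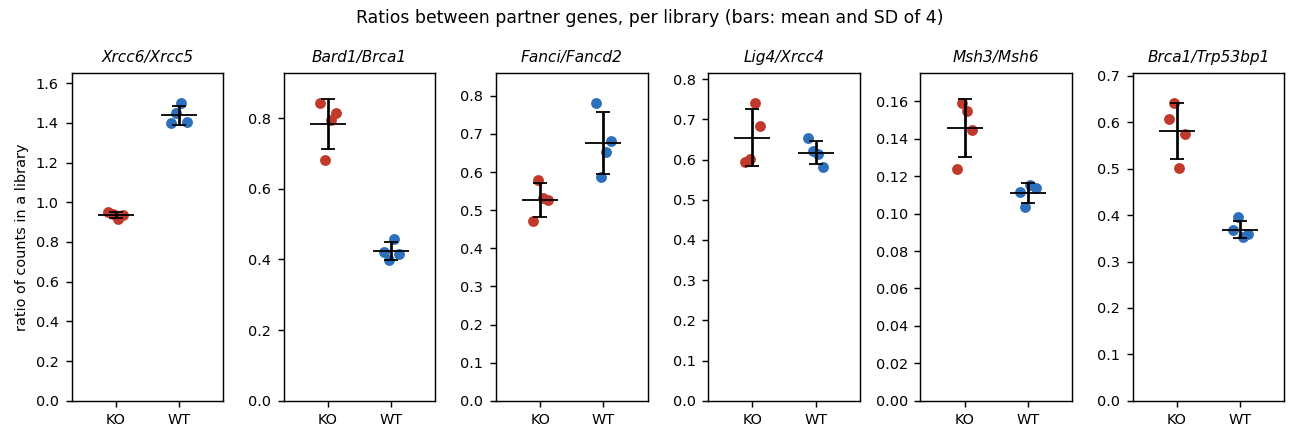
Ratio of the counts of partner genes in each library, KO at the left and WT at the right of each panel, with the mean and SD of 4 libraries. Xrcc6 over Xrcc5 is near 0.935 in KO and 1.44 in WT libraries, and only Lig4 over Xrcc4 overlaps between groups among the 6 ratios.

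Levels between genes were compared per kilobase of exon, with lengths from the GENCODE M21 annotation. Each length is the union of all annotated exons of a gene and can exceed that of a single transcript, which limits the ranking. Msh6 had the highest level of the 43 in WT cells, at 23.0 CPM per kb in KO and 28.3 in WT libraries. Parp1 followed at 19.2 CPM per kb in KO and 27.0 in WT libraries. The Ku genes came next, Xrcc5 at 22.1 CPM per kb in KO and 19.3 in WT libraries and Xrcc6 at 11.8 in KO and 15.8 in WT libraries. At the low end, Dna2 had 0.578 CPM per kb in KO and 0.485 in WT libraries and Fancc 0.424 in KO and 0.318 in WT libraries.

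Set side by side, homologous recombination had 7 of 12 genes higher and 2 lower, and end joining 4 of 7 higher and 3 lower. Msh6 was lower, and of all tested genes 34.4% were higher and 33.5% lower. Whether these shares differ, between pathways or from all tested genes, was not tested. Gene groups of the cell cycle moved beside these results. All 18 genes of a mitosis list were higher in KO cells, with a median log2 fold change of 0.77, and of 28 DNA replication genes 13 were higher and 4 lower, with a median of 0.14. In single libraries the mean difference from the WT mean was 0.78, 0.90, 0.64 and 0.80 (log2) for the mitosis list and 0.35, 0.37, 0.24 and 0.44 for the 12 homologous recombination genes in KO replicates 1 to 4. KO replicate 3 was the lowest KO library for both. For the 7 end joining genes the same means were -0.02, 0.15, 0.21 and 0.11, with KO replicate 3 the highest. The part of cell cycle distribution in the repair results was not tested.

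**Figure D4:**
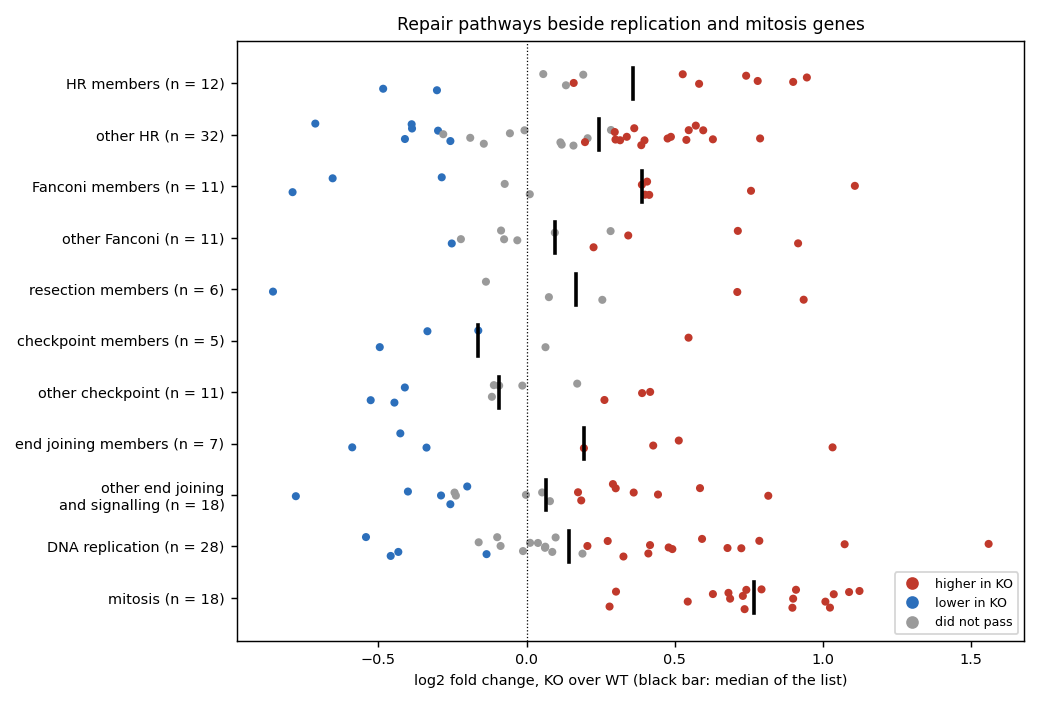
Log2 fold change, KO over WT, of the genes of the repair pathways other than mismatch repair and of the replication and mitosis lists, with each point a gene and the line the median. The medians of the 43 genes by pathway are 0.36 for homologous recombination, 0.39 for Fanconi, 0.17 for resection, -0.16 for checkpoint and 0.19 for end joining genes, beside 0.14 for replication, 0.77 for mitosis and 0.01 for all tested genes.

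Many repair genes share a start region with a gene transcribed away from them. Among the 43, 14 had a tested protein-coding neighbour on the opposite strand with starts at most 1000 bp apart (positions in GRCm39, from the count table). Calls in either direction covered 67.9% of all tested genes, and no share was computed for such pairs among all genes. Both genes passed in the same direction in 2 pairs, Fancb with Mospd2 and Lig4 with Abhd13, and in opposite directions in 3. Fancd2 rose while Emc3, whose annotated start lies 30 bp away, fell by 0.17 ± 0.05 on the log2 scale (adjusted p = 0.00842). Rad51b rose while Zfyve26 fell by 0.45 ± 0.06 (adjusted p = 1.45e-06), and Xrcc3 fell while Zfyve21 rose by 0.36 ± 0.09 (adjusted p = 0.000807). In 5 pairs the repair gene alone passed, among them Atm with Npat (-0.08 ± 0.07, adjusted p = 0.283) and Prkdc with the replication helicase gene Mcm4 (-0.10 ± 0.06, adjusted p = 0.153). In 3 pairs the neighbour alone passed, among them Brca1, whose neighbour Nbr1 fell by 0.44 ± 0.05 (adjusted p = 1.6e-07). Besides Fancl and Fanci, 10 of the 43 genes overlap a gene with at least 200 counts in all on the opposite strand. Opposite-strand exons of any annotated gene overlap 18.6% of the exon bases of Fancc and 15.4% of those of Rad54l. The share was 15.0% for Trp53bp1, 15.0% for Fancf, 10.5% for Fanca and at most 7.69% for the others of these 10. In the same order, the overlapping genes were Aopep (log2 fold change -0.67), Lrrc41 (0.34), Tubgcp4 (0.25), Gas2 (0.95) and Zfp276 (0.02). Xrcc6, at 7.69%, overlaps Desi1 over 41340 bp. Desi1 had 14593 counts in all against 10630 for Xrcc6, and it fell by 0.24 on the log2 scale (adjusted p = 0.000308). The part of these genes in the counts was not tested.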

How the data were processed

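Libraries were made with a stranded mRNA kit, per the labels. Listed in the submitters' processing notes are the build GRCm39, limma, edgeR, featureCounts 1.6.0, STAR 2.7.9a and FastQC 0.11.8. The sources used here do not give the strand setting or the treatment of multimapping reads. The authors deposited raw counts per gene and a second table of log2 CPM in voom's form.

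The main test was edgeR 4.0.16 (R 4.3.3; TMM, filterByExpr, glmQLFit with robust estimation, glmQLFTest) on the deposited counts of all 8 libraries with genotype as the only term, adjusted by Benjamini-Hochberg over 13707 genes, with calls at an adjusted p under 0.05. The standard error is the absolute log2 fold change over the square root of F. CPM are counts over TMM-scaled library sizes, as mean ± SD of 4 libraries. Partner ratios used counts plus 0.5 and exact permutation tests (scipy 1.17.1). Exon lengths and strand overlaps came from GENCODE M21 (GRCm38) and promoters from RefSeq, whose coordinates differ from those of the count table. The steps were tested on simulated data. Other software was matplotlib 3.10.9, pandas 2.3.3, numpy 2.4.6 and Python 3.11.15.

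Members and lists were chosen with earlier results of these data known. Some genes of the further lists are not reported here and are left out of the list counts, and no count is given for mismatch repair. Genes named were: members that passed at an absolute log2 fold change of at least 1 and at least 1 CPM in the higher group; in each role the riser and the faller with the smallest adjusted p; 13 anchor genes; Stk11; and, by the same ranking, at most 2 risers and 2 fallers of each further list. Others among the 43 are given to account for every member, and neighbours by position; Msh3 and Pms1 complete their list. Alternatives were other scalings and filters, DESeq2 1.42.0, limma-voom (limma 3.58.1), limma on the deposited log2 values, the replicate number as a block, and leaving out each library in turn. Intervals from replicates cover the spread between these cultures.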

Additional observations from a re-analysis of the deposited data

Results flagged for a closer look

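In 86 groups of 4 libraries (43 genes in 2 groups), 5 held a library far from the other 3 by Dixon's criterion at the 95% level, where chance gives about 1 in 20 groups. Parp1 stood at 96.2 CPM in KO replicate 4, against 103 to 104 CPM in the other KO libraries. Fancd2 stood at 25.3 CPM in WT replicate 2, against 20.9 to 21.3 CPM in the other WT libraries, and remained below every KO library. Xrcc5 stood at 43.4 CPM in WT replicate 3, against 50.8 to 52.4 CPM in the other WT libraries, and its call was lost without that library. Palb2 stood at 8.99 CPM in WT replicate 3, against 9.48 to 9.55 CPM in the others. Rad54l stood at 9.22 CPM in WT replicate 4, against 9.68 to 9.73 CPM in the others.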

How the results depend on the processing

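Over all alternatives run, 17 to 20 of the 43 genes were called higher and 13 to 15 lower. Scaling to library size alone gave 17 and 15 and moved the median log2 fold change of all genes to -0.07; DESeq2 gave 18 and 14, and both limma fits gave 20 and 14. Without KO replicate 3 the counts were 19 and 14. Of 13707 genes tested, 9311 were called in the main fit, 9167 by library size alone and 9120 by DESeq2. Limma-voom called 9269 of the same genes, and limma on the deposited log2 values 9957 of 15726. Leaving out KO replicate 3 gave 9634 of 13933. The number of homologous recombination genes called lower was 1 to 2 when single libraries were left out, as Palb2 lost its call. The sign turned for genes that were not called: by library size alone Brca1 was -0.0275, Mre11a -0.00907, Atr -0.0189 and Fancf -0.0699, by the upper quartile Fancf was -0.0018, and with single libraries left out Fancf lay between -0.0759 and 0.0874 and Brca2 between -0.0051 and 0.23. Library size alone also moved Rad51d to 0.08 and Xrcc5 to 0.11. With the replicate block, 19 were higher and 14 lower, with Rad51d lost. The numbers did not pair the libraries: correlations of same-numbered deviations were -0.10 to 0.04, and no KO library correlated best with its own number. With 4 within-number differences the smallest p for a ratio is 0.125. The causes were not tested. The lowest member count of 40 limits precision for Fancc and Nhej1.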
